A study of Mus musculus with 6 samples.

Results

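Antigen presentation displays fragments of proteins on the cell surface for T cells to inspect. In the class I pathway, which nearly every nucleated cell runs, the proteasome cuts cytosolic proteins, the TAP transporter pumps the peptides into the endoplasmic reticulum, and a heavy chain paired with beta-2-microglobulin carries them to the surface for CD8 T cells. In the class II pathway, which belongs mainly to dendritic cells, B cells and macrophages, endosomal proteases cut engulfed proteins, the invariant chain guards the groove of the alpha and beta chains until a peptide is loaded, and CD4 T cells read the result. Interferon gamma raises genes of both pathways, through NLRC5 for class I and CIITA for class II, and in the liver the class II genes are expressed chiefly by Kupffer cells, dendritic cells and B cells, with little in hepatocytes.

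The 10 genes described here are 5 of the class I pathway (B2m, Tap1, Psmb8, Psmb9 and Nlrc5) and 5 of the class II pathway (Ciita, Cd74, H2-Aa, H2-Ab1 and H2-Eb1). They were found by mapping the accession printed for each non-control probe of the arrays to a current gene symbol. All 10 were on the array, with 16 probes between them, and all 10 were among the 27412 features tested. This mapping used no measured value, but the genes were chosen with earlier results of these data known. Shares of the members set beside shares of all features are therefore descriptions.

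RNA was measured in 6 hepatocellular carcinomas of C57BL/6 mice, 2 in each of 3 groups. The first group is Epcam-derived tumours with CLC and the second is Epcam-derived tumours without CLC, both from Epcam-AID mice that received tamoxifen and a diet with 0.1% DDC for 8 months. The third, which serves as the comparator, is Albumin-derived tumours without CLC from Alb-AID mice killed at 90 weeks of age. AID is activation-induced cytidine deaminase, an enzyme that mutates DNA, and all 3 groups come from AID lines. One line takes its name from Epcam, an adhesion molecule found on biliary and progenitor cells of the liver, and the other from albumin (Alb), the main secreted protein of hepatocytes. DDC is a porphyria-causing compound that injures bile ducts and makes ductular cells proliferate, and the series describes its Epcam-derived tumours as arising from ductular progenitor cells. What CLC stands for is not spelled out in the labels, which give it as a component of the tumour. Cell of origin, diet, tamoxifen and, as far as the labels give it, age differ together between the Epcam-derived and Albumin-derived groups. The sex of the animals and the age of the Epcam-AID mice are not given, the labels do not say whether 2 tumours of a group came from separate animals, and no tumour-free liver or AID-free tumour is among the 6 samples used here. The p-values below therefore measure only the spread between these samples. All of the values are from whole tumour tissue, in which fewer cells of a type and less RNA per cell cannot be told apart.

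Values are the log2 of the array's processed signal minus the 75th percentile of that array, so that 0 is the brightness of a probe at the 75th percentile. They compare 1 gene across arrays, not 1 gene with another. The 75th percentile itself was 315 and 488 intensity units in tumours with CLC, 424 and 457 in Epcam-derived tumours without CLC, against 285 and 306 in Albumin-derived tumours. Slide 1 held both Albumin-derived tumours and replicate 1 with CLC, and slide 2 held both Epcam-derived tumours without CLC and replicate 2 with CLC, so the 3 arrays of slide 2 were the brighter ones. No spot was saturated (0 on each array), and the number of arrays limits the precision. All 7 hepatocyte markers, among them Alb, Ttr and Apob, were well above background on all 6 arrays.

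The promoters of members in the 2 pathways were searched for short sequence elements known from the regulation of such genes. In class II promoters, the X box is bound by the RFX complex and the Y box by NF-Y, and CIITA docks on that assembly without binding DNA itself. NLRC5 acts in a similar way at class I genes. Interferon regulatory factors and NF-kappaB bind other elements. RefSeq promoter windows (GRCm38.p6) were given for 6 members that may be shown: B2m, Psmb9, Tap1, Psmb8, H2-Aa and H2-Eb1. The 250 bases before the start of transcription are printed for 5 of them, 5′ to 3′ on the strand of the gene, with capitals at every match, on either strand, to GCAAC (core of the X box), ATTGG (Y box), TTCNNNGAA (gamma-activated site), GAAANNGAAA (interferon regulatory factor site) or GGGANNNNCC (NF-kappaB site). The windows are chr17:34287824-34288073 (minus strand) for H2-Aa, chr17:34305617-34305866 (plus) for H2-Eb1, chr17:34187306-34187555 (plus) for Tap1, chr17:34197945-34198194 (plus) for Psmb8 and chr2:122147437-122147686 (plus) for B2m.
H2-Aa: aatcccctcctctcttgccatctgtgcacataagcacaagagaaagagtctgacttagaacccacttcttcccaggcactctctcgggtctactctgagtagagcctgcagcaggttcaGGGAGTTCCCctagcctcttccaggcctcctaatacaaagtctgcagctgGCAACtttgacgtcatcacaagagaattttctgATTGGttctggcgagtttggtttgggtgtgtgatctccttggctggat
H2-Eb1: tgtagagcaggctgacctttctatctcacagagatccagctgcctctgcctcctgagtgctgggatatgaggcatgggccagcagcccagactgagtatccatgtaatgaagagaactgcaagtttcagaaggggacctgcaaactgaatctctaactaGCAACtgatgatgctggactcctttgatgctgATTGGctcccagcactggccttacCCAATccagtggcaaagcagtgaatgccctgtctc
Tap1: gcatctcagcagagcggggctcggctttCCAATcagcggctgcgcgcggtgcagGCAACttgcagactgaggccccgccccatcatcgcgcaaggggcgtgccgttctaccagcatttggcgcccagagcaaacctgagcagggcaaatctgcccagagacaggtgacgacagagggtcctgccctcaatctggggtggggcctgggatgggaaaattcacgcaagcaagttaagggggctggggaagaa
Psmb8: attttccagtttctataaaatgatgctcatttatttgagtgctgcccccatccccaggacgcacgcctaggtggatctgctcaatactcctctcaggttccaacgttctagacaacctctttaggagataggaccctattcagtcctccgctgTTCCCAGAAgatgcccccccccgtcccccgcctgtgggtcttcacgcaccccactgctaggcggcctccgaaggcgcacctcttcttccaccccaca
B2m: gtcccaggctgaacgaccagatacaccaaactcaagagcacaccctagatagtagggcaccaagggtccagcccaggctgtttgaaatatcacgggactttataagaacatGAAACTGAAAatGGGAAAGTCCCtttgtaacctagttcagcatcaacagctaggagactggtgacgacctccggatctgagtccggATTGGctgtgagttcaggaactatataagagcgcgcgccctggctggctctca

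Both class II chains carry an X box core followed by a Y box. In H2-Aa, GCAAC starts at -81 and ATTGG at -48 from the start of transcription, 33 bases apart. In H2-Eb1 the same letters start at -91 and -59, 32 bases apart, with CCAAT, the Y box on the other strand, at -35. Each element is common alone, GCAAC being in 29.9% and ATTGG in 33.8% of 32851 mouse promoter windows of this length. The pair in that order at either spacing was in 0.128% of them, 42 windows of 39 genes, which include H2-Eb2 and H2-Oa among the class II relatives. The spacing was read from these 2 promoters and then counted, so the share is a description.

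Tap1 and Psmb9 are neighbours that start 226 bases apart on opposite strands, and their windows share 225 bases. The printed Tap1 window therefore also holds most of the Psmb9 promoter: its GCAAC at -196 and CCAAT at -222 lie at -34 and -8 of Psmb9. No protein-coding gene lies between Psmb9 and Tap1 or between Tap1 and Psmb8 in the annotation (0 in each interval), and the same holds from H2-Ab1 to H2-Aa and from H2-Aa to H2-Eb1. Psmb8 had 1 match, a gamma-activated site at -97, an element found in 7.02% of all windows. B2m had ATTGG at -53, an interferon regulatory factor site at -139 (2.98% of windows) and 2 overlapping NF-kappaB matches on opposite strands at -127 and -126 (17.6%). H2-Aa also had an NF-kappaB match at -131, which fits the motif on both strands. A match shows that the letters are there, and says nothing of whether a factor was bound in these tumours.

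Among class I genes, Tap1, Psmb8, Psmb9 and Nlrc5 were higher on average in both Epcam-derived groups than in Albumin-derived tumours, by 1.93-fold to 3.53-fold. B2m stayed within 1.12-fold of the Albumin-derived mean in both. None of the 5 differed by limma at an adjusted p under 0.05 in any comparison. The plot of each gene by array shows that the brighter values of the 4 genes fell on 1 slide.

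B2m encodes the light chain that every class I molecule needs. The log2 signal of B2m was 7.58 and 7.59 in tumours with CLC, 7.55 and 7.51 in Epcam-derived tumours without CLC, against 8.05 and 7.33 in Albumin-derived tumours. The 4 Epcam-derived tumours lay between the 2 Albumin-derived ones, which differed from each other more than any other pair. Against Albumin-derived tumours the log2 difference was -0.11 ± 0.32 with CLC and -0.16 ± 0.32 without (SE, n = 2 per group). The 95% intervals ran from -0.90 to 0.69 and from -0.95 to 0.64.

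Tap1 is 1 of the 2 subunits of the peptide transporter. Tap1 signal (log2) was 0.45 and 2.23 in tumours with CLC, 1.35 and 1.53 in Epcam-derived tumours without CLC, against 0.58 and 0.21 in Albumin-derived tumours. Both Epcam-derived tumours without CLC were above both Albumin-derived ones, while the 2 tumours with CLC lay far apart, 1 above all of these and the other between the 2 Albumin-derived tumours. The difference from Albumin-derived tumours was 1.05 ± 0.60 without CLC (2.07-fold; limma, adjusted p = 0.376) and 0.95 ± 0.60 with CLC (1.93-fold; adjusted p = 0.495). The dimmer Tap1 probe gave 0.76 and 0.80 in the same comparisons.

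Psmb8 encodes a catalytic subunit of the immunoproteasome, the form of the proteasome induced by interferon gamma. Psmb8 signal (log2) was 1.70 and 3.15 in tumours with CLC, 2.97 and 3.07 in Epcam-derived tumours without CLC, against 1.08 and 1.32 in Albumin-derived tumours. All 4 Epcam-derived tumours were above both Albumin-derived ones, replicate 1 with CLC by the smallest margin. Without CLC the difference from Albumin-derived tumours was 1.82 ± 0.50, a fold of 3.53 (limma, unadjusted p = 0.0120, adjusted p = 0.157), which was the smallest adjusted p of any member in the 3 comparisons. With CLC it was 1.23 ± 0.50, a fold of 2.34 (adjusted p = 0.315).

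Psmb9 encodes a second inducible catalytic subunit and shares its promoter region with Tap1. Its log2 signal was 2.17 and 3.78 in tumours with CLC, 2.86 and 3.76 in Epcam-derived tumours without CLC, against 1.84 and 1.51 in Albumin-derived tumours. Again all 4 Epcam-derived tumours were above both Albumin-derived ones, and replicate 1 with CLC was nearest to them. The difference was 1.64 ± 0.61 without CLC (3.11-fold; limma, adjusted p = 0.225) and 1.30 ± 0.61 with CLC (2.47-fold; adjusted p = 0.367). Psmb10, the remaining inducible catalytic subunit, differed from Albumin-derived tumours by only 0.17 ± 0.33 without CLC and 0.27 ± 0.33 with CLC. Psmb5, Psmb6 and Psmb7 are the constitutive catalytic subunits that Psmb8, Psmb9 and Psmb10 replace. Their median log2 difference from Albumin-derived tumours was -0.02 without CLC and 0.07 with CLC. The largest of the 3 in size was -0.25 ± 0.41 (Psmb7, without CLC).

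Nlrc5 encodes the class I transactivator. Nlrc5 signal (log2) was 0.57 and 1.81 in tumours with CLC, 1.25 and 0.92 in Epcam-derived tumours without CLC, against 0.07 and -0.85 in Albumin-derived tumours. All 4 Epcam-derived tumours were above both Albumin-derived ones. The difference was 1.47 ± 0.53 without CLC (2.77-fold; limma, adjusted p = 0.216) and 1.58 ± 0.53 with CLC (2.98-fold; adjusted p = 0.251). The second Nlrc5 probe, well above background on 4 of 6 arrays, gave 0.64 and 0.63.

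**Figure D1:**
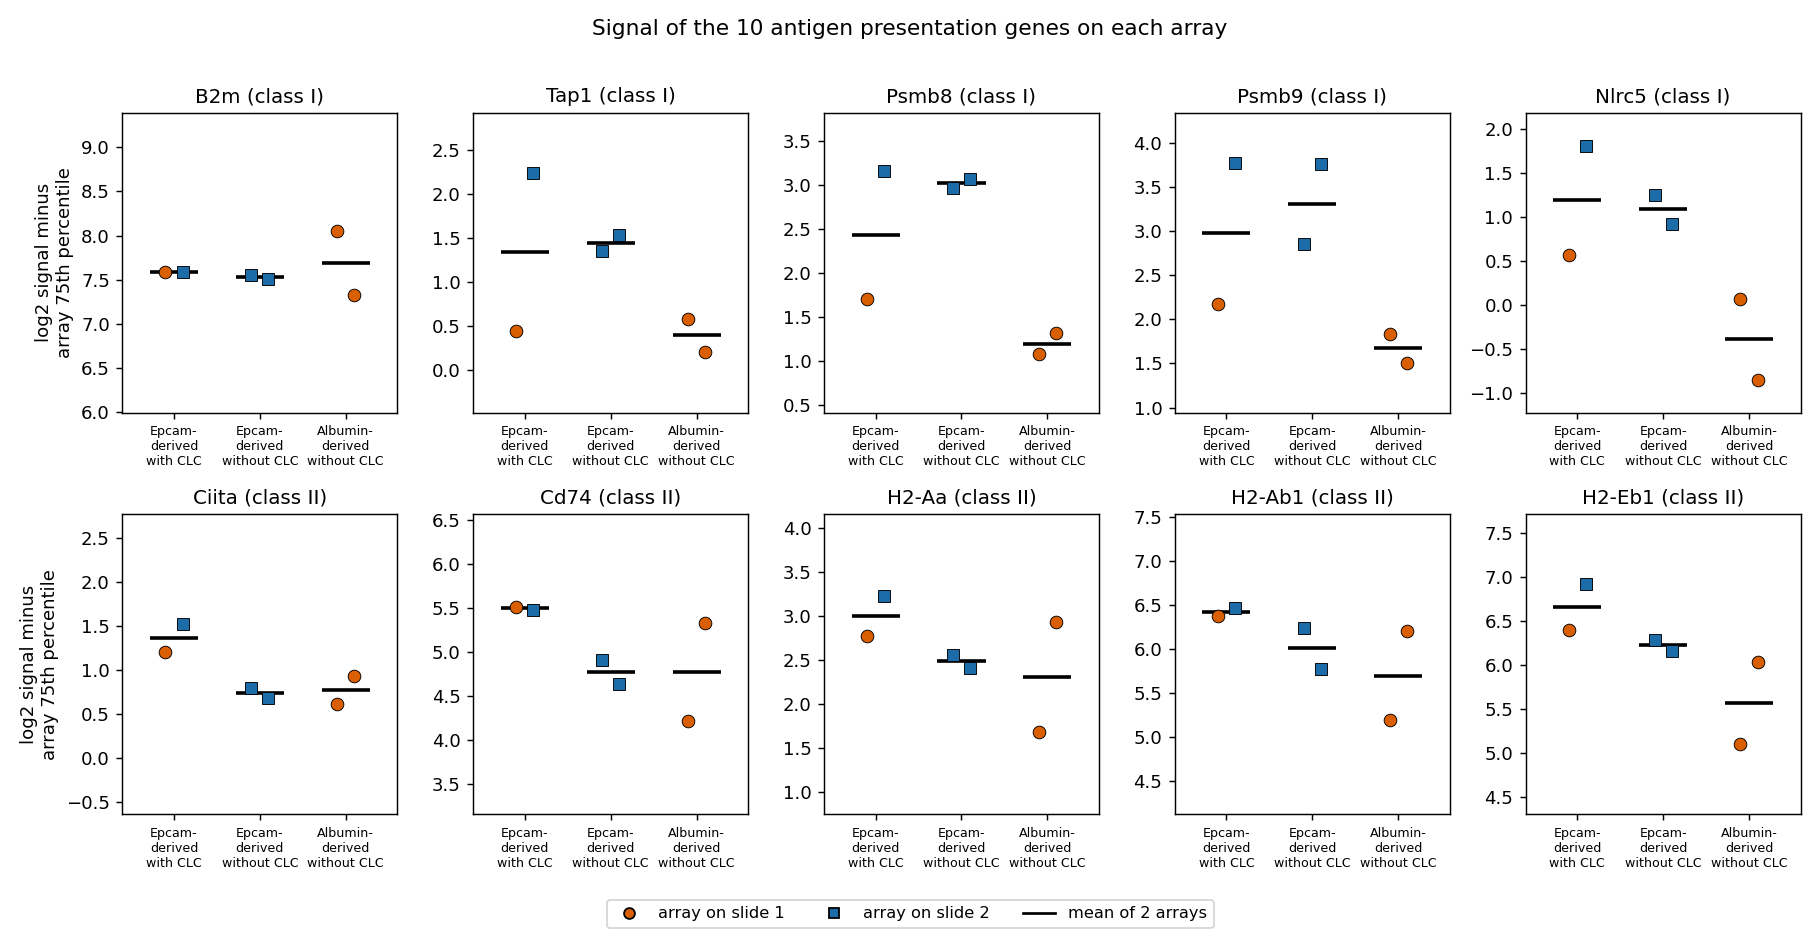
Log2 processed signal minus the array's 75th percentile for each of the 10 genes (class I above, class II below) on each array, by group; bars are means of 2 arrays, and colour and shape give the slide. Every panel spans the same number of log2 units. Tap1, Psmb8, Psmb9 and Nlrc5 are higher on all 3 slide 2 arrays than on all 3 slide 1 arrays, and the 5 class II genes are higher in both tumours with CLC than in both Epcam-derived tumours without CLC.

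For 4 of the 5 class I genes, both Epcam-derived tumours without CLC exceeded both Albumin-derived tumours (Tap1, Psmb8, Psmb9 and Nlrc5), and H2-Eb1 makes 5 of all 10 members. The groups failed to overlap in that direction for 30.4% of the 27412 features. Over all features limma called 67 genes in this comparison, 0.244%, and 0 members. At an unadjusted p under 0.05, 3 members were higher (Psmb8, Psmb9 and Nlrc5), against 11.7% of all features. The median of the 5 class I members was 1.47, beside 0.06 over all features, with 4 of 5 differences above 0, as were 53.5% of all features.

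In that comparison the 2 groups were on different slides, so slide and group cannot be told apart. Tumours with CLC span both slides. The tumour on slide 2 exceeded the one on slide 1 by 1.78 for Tap1, 1.45 for Psmb8, 1.60 for Psmb9 and 1.24 for Nlrc5, and by 0.0031 for B2m. These 4 genes were higher on all 3 arrays of slide 2 than on all 3 of slide 1, as were 15.7% of all features. Within slide 1, replicate 1 with CLC differed from the Albumin-derived mean by 0.05 for Tap1, 0.50 for Psmb8, 0.50 for Psmb9 and 0.96 for Nlrc5. Within slide 2, replicate 2 with CLC differed from the mean of Epcam-derived tumours without CLC by 0.79, 0.13, 0.47 and 0.72 for the same genes. The part of slide and array brightness in the class I differences was not tested.

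Within the Epcam-derived tumours, with against without CLC, class I genes showed no common direction over both slides. Differences were 0.05 ± 0.32 for B2m, -0.10 ± 0.60 for Tap1, -0.59 ± 0.50 for Psmb8, -0.33 ± 0.61 for Psmb9 and 0.10 ± 0.53 for Nlrc5 (SE, n = 2 per group), with a median of -0.10. The 95% intervals reached -1.84 at the low end (Psmb9) and 1.42 at the high end (Nlrc5). With slide as a fixed block, which draws on a single array with CLC, that of slide 2, all 5 differences were above 0, at 0.05, 0.79, 0.13, 0.47 and 0.72 in the same order, with a median of 0.47, and none passed the threshold.

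Class II genes followed another pattern. Each of the 5 was higher in both tumours with CLC than in both Epcam-derived tumours without CLC, by 1.33-fold to 1.65-fold, and none passed limma's threshold (adjusted p = 0.999 for each). With B2m, whose difference was 1.04-fold, 6 of the 10 members did not overlap in this direction, against 10.3% of all features. Limma called 0 of the 27412 features here (0%), with 954 at an unadjusted p under 0.05. Of all features, 1.31% were higher at that unadjusted p and 43.1% had a difference above 0, and 0 members reached that p. The median of the 5 class II differences was 0.51, beside -0.06 over all features.

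Ciita encodes the class II transactivator, the switch for the whole class II set. Its log2 signal was 1.21 and 1.52 in tumours with CLC, 0.80 and 0.69 in Epcam-derived tumours without CLC, against 0.62 and 0.94 in Albumin-derived tumours. Both tumours with CLC were above the other 4, and the groups without CLC overlapped. The difference with against without CLC was 0.62 ± 0.27, a fold of 1.54 (limma, unadjusted p = 0.0657, adjusted p = 0.999). Against Albumin-derived tumours it was 0.59 ± 0.27 with CLC (1.50-fold; adjusted p = 0.366) and -0.03 ± 0.27 without. The dimmer Ciita probe gave 0.76, 0.31 and -0.45 in the same order.

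Cd74 encodes the invariant chain. Cd74 signal (log2) was 5.51 and 5.48 in tumours with CLC, 4.91 and 4.64 in Epcam-derived tumours without CLC, against 4.22 and 5.34 in Albumin-derived tumours. The tumours with CLC were nearly equal and above the other 4, while the 2 Albumin-derived tumours lay 1 on each side of the Epcam-derived tumours without CLC. The difference with against without CLC was 0.72 ± 0.42, a fold of 1.65. Against Albumin-derived tumours it was 0.72 ± 0.42 with CLC (limma, adjusted p = 0.461) and -0.0004 ± 0.42 without, with a 95% interval of -1.03 to 1.03.

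H2-Aa encodes the alpha chain of the class II molecule I-A. Its log2 signal was 2.77 and 3.22 in tumours with CLC, 2.56 and 2.40 in Epcam-derived tumours without CLC, against 1.68 and 2.93 in Albumin-derived tumours. Albumin-derived replicate 2 lay between the tumours with CLC, and replicate 1 was the lowest of all. The difference with against without CLC was 0.51 ± 0.46, a fold of 1.43, and against Albumin-derived tumours 0.69 ± 0.46 with CLC and 0.18 ± 0.46 without.

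H2-Ab1 encodes the beta chain that pairs with it. H2-Ab1 signal (log2) was 6.38 and 6.46 in tumours with CLC, 6.24 and 5.77 in Epcam-derived tumours without CLC, against 5.19 and 6.20 in Albumin-derived tumours. Both tumours with CLC were above the other 4, the nearest by a small margin. The difference with against without CLC was 0.42 ± 0.41, a fold of 1.33, and against Albumin-derived tumours 0.73 ± 0.41 with CLC and 0.31 ± 0.41 without. Over the 4 probes of H2-Ab1 the first of these ran from 0.42 to 0.58 and the second from 0.70 to 0.94.

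H2-Eb1 encodes the beta chain of the other class II molecule, I-E. C57BL/6 mice lack a working gene for its alpha partner, so that I-E does not reach the cell surface in this strain. The log2 signal was 6.40 and 6.92 in tumours with CLC, 6.28 and 6.16 in Epcam-derived tumours without CLC, against 5.10 and 6.03 in Albumin-derived tumours. The 3 groups did not overlap, in that order. The difference was 0.44 ± 0.40 with against without CLC, a fold of 1.35. Against Albumin-derived tumours it was 1.09 ± 0.40 with CLC (2.13-fold; limma, adjusted p = 0.278) and 0.66 ± 0.40 without (1.58-fold; adjusted p = 0.398).

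**Figure D2:**
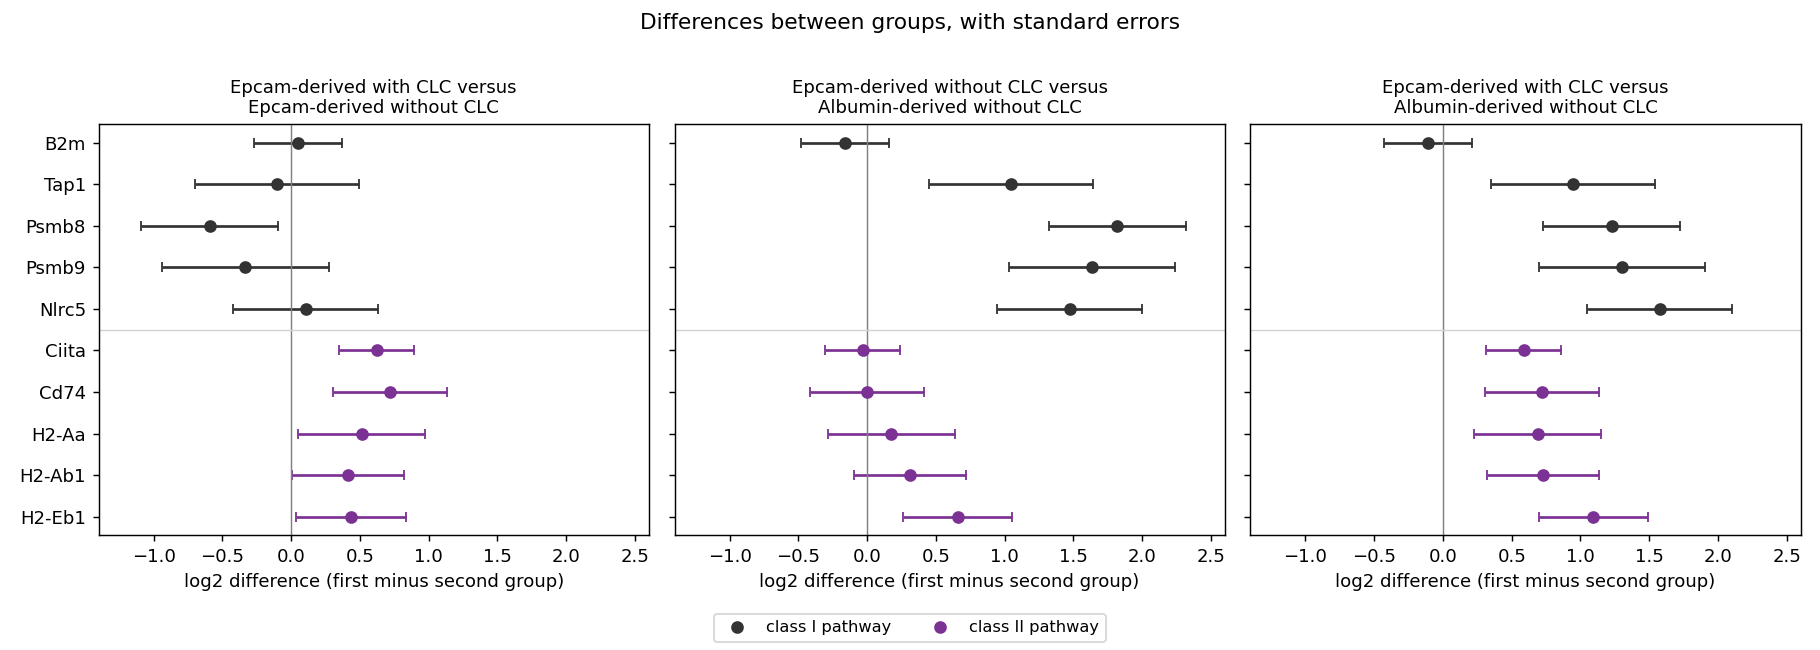
Log2 differences of the 10 genes in the 3 comparisons, first named group minus second, with standard errors from the limma fit (n = 2 arrays per group). With against without CLC among Epcam-derived tumours, the class II differences lie from 0.42 to 0.72 and the class I differences from -0.59 to 0.10. Against Albumin-derived tumours, Tap1, Psmb8, Psmb9 and Nlrc5 lie from 0.95 to 1.82.

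Albumin-derived replicate 1 was the lowest of the 6 arrays for all 5 class II genes, and replicate 2 exceeded it by 0.32 to 1.24. With replicate 1 left out, the median class II difference of Epcam-derived tumours without CLC against Albumin-derived tumours was -0.19 where it was 0.18 with both, and with replicate 2 left out it was 0.80. The median against Albumin-derived tumours with CLC was 0.72, and ran from 0.22 to 1.28 with 1 array left out.

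In the comparison of tumours with CLC against Albumin-derived tumours, 7 of the 10 members did not overlap and were higher (Psmb8, Psmb9, Nlrc5, Ciita, Cd74, H2-Ab1 and H2-Eb1), against 23.8% of all features. Limma called 17 features, 0.062%, and 0 members. At an unadjusted p under 0.05, 2 members were higher (Nlrc5 and H2-Eb1), against 7.95% of all features. Differences were above 0 for 9 of 10 members and 49.3% of features. This comparison shares its tumours with the other 2, so the 3 are not separate results.

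Each slide held 1 tumour with CLC and a different group beside it, so the within-slide values are 2 separate contrasts. On slide 2, replicate 2 with CLC exceeded the mean of Epcam-derived tumours without CLC by 0.78 for Ciita, 0.71 for Cd74, 0.74 for H2-Aa, 0.46 for H2-Ab1 and 0.70 for H2-Eb1. On slide 1, replicate 1 with CLC exceeded the Albumin-derived mean by 0.43, 0.73, 0.46, 0.68 and 0.83 for the same genes. That mean rests on 2 unlike tumours: against Albumin-derived replicate 1 the differences were 0.59, 1.29, 1.08, 1.19 and 1.30, and against replicate 2 they were 0.27, 0.17, -0.16, 0.18 and 0.37. None of the 5 was higher on all arrays of 1 slide. Each of these within-slide values rests on 1 tumour with CLC and has no replicate check.

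Across the 6 arrays, 4 of the class I genes and the 5 class II genes formed 2 blocks. They are given here as Pearson's r with no test because the arrays share slides and differ in brightness. Tap1, Psmb8, Psmb9 and Nlrc5 correlated with each other at 0.856 to 0.942, and the 5 class II genes with each other at 0.787 to 0.940. Between those 4 and the class II genes r ran from 0.05 to 0.705, and for H2-Eb1 alone from 0.602 to 0.705. B2m correlated at -0.339 to 0.07 with the other class I genes and at -0.779 to -0.313 with the class II genes.

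**Figure D3:**
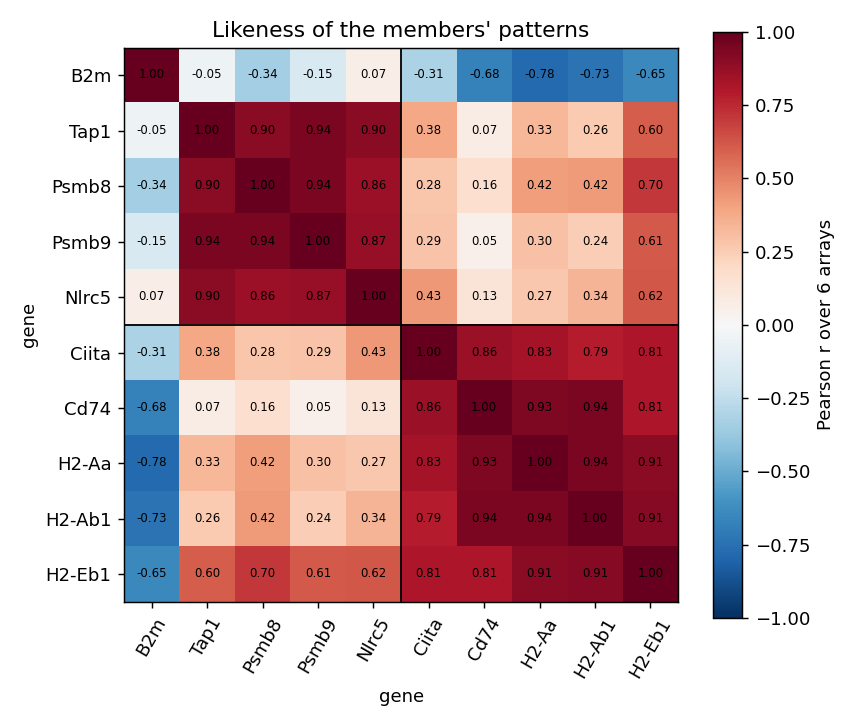
Pearson's r between the log2 signals of each pair of the 10 genes over the 6 arrays, from -1 (blue) to 1 (red); lines part class I from class II. Tap1, Psmb8, Psmb9 and Nlrc5 form 1 block (0.856 to 0.942), the class II genes another (0.787 to 0.940), and B2m joins neither.

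Of 15859 other named genes, those most like the mean of the 5 class I members over the 6 arrays were Vmn1r204, BC147527, Gm10778, Ifnl3 and Olfr414 (r = 0.989 to 0.993). Each was higher on all arrays of slide 2 than on all of slide 1, as the class I mean and 15.7% of all features were. Vmn1r204, Ifnl3 and Olfr414 were dim, with highest log2 signals of -1.85, -1.81 and -3.15. Those most like the class II mean were Endod1, Mrgpra4, Rrp1b, H2-DMb1 and Slc4a3 (r = 0.975 to 0.997). H2-DMb1, the beta chain of the peptide exchanger of class II loading, had a log2 signal of 2.43 and 2.40 in tumours with CLC, 1.91 and 1.56 in Epcam-derived tumours without CLC, against 0.99 and 1.99 in Albumin-derived tumours. With 6 points and this many genes, likeness of this size is a description only.

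Of 9 measured class I loading genes, 7 were higher with than without CLC (median 0.098), 4 in Epcam-derived tumours without CLC against Albumin-derived tumours (median -0.0027) and 6 with CLC against Albumin-derived tumours (median 0.18). In these comparisons 0 passed limma's threshold. In the second, 2 were lower at an unadjusted p under 0.05, as were 2270 of the 27412 features. Tap2, the second transporter subunit, had a log2 signal of 2.65 and 4.31 in tumours with CLC, 3.69 and 3.99 in Epcam-derived tumours without CLC, against 2.29 and 2.89 in Albumin-derived tumours, a difference of 1.25 ± 0.58 between the groups without CLC (adjusted p = 0.297). Of the 9 loading genes, Tap2 was the 1 that was higher on all arrays of slide 2 than on all of slide 1, against 15.7% of all features.

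Calreticulin (Calr) had a log2 signal of 4.60 and 4.64 in tumours with CLC, 4.21 and 4.10 in Epcam-derived tumours without CLC, against 5.96 and 5.99 in Albumin-derived tumours. Pdia3, its partner thiol oxidoreductase, had 2.77 and 3.04, 2.81 and 3.24, and 4.44 and 4.33 in the same order. For both genes all 4 Epcam-derived tumours were below both Albumin-derived ones. Between the groups without CLC the differences were -1.82 ± 0.24 for Calr (limma, adjusted p = 0.0616), -1.36 ± 0.28 for Pdia3 (0.105) and -0.76 ± 0.33 for the chaperone calnexin (Canx; 0.272).

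Class I heavy chains are near-identical copies whose probes may share targets, so single values are uncertain. Of 13 measured, 10 were higher with than without CLC (median 0.27), 8 were higher in Epcam-derived tumours without CLC than in Albumin-derived tumours (median 0.20), 10 were higher with CLC than in Albumin-derived tumours (median 0.20), and 0 passed limma's threshold. H2-D1, a classical heavy chain, had a log2 signal of 6.17 and 6.94 in tumours with CLC, 6.26 and 6.06 in Epcam-derived tumours without CLC, against 5.78 and 5.58 in Albumin-derived tumours. The H2-D1 groups overlapped between the Epcam-derived tumours, and all 4 were above the Albumin-derived ones. Between the groups without CLC, 3 of the 13 did not overlap and were higher, against 30.4% of all features. Another 4 did not overlap and were lower, a direction for which the share of all features was not counted.

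Of 11 measured class II accessory genes, 10 were higher with than without CLC (median 0.31), 7 were higher in Epcam-derived tumours without CLC than in Albumin-derived tumours (median 0.21) and 10 were higher with CLC than in Albumin-derived tumours (median 0.52). H2-Oa, a chain of the molecule that restrains peptide exchange, had a log2 signal of -2.46 and -2.04 in tumours with CLC, -3.52 and -3.51 in Epcam-derived tumours without CLC, against -2.22 and -3.06 in Albumin-derived tumours, a difference of 1.27 ± 0.37 with against without CLC (limma, adjusted p = 0.999). Marchf1, a ubiquitin ligase that removes class II molecules from the surface, was 3.44 and 3.30 in tumours with CLC, 3.63 and 3.63 in Epcam-derived tumours without CLC, against 2.16 and 2.62 in Albumin-derived tumours. All 4 Epcam-derived tumours were above both Albumin-derived ones for Marchf1, by 0.98 ± 0.28 with CLC (adjusted p = 0.203) and 1.24 ± 0.28 without (0.116).

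Ctsl, which encodes the endosomal protease cathepsin L, was the 1 gene of these pathway lists that passed limma's threshold. Its log2 signal was 6.24 and 5.95 in tumours with CLC, 6.13 and 6.04 in Epcam-derived tumours without CLC, against 8.82 and 8.99 in Albumin-derived tumours. Against Albumin-derived tumours, Ctsl was lower by 2.82 ± 0.26 without CLC (SE, n = 2 per group; limma, adjusted p = 0.0408). With CLC it differed by -2.80 ± 0.26 (adjusted p = 0.06). Over all features 0.244% were called between the groups without CLC, which were on different slides, so slide and group cannot be told apart there.

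The regulators that act above these genes had medians near 0 or below it. Of 14 measured regulators, including the RFX and NF-Y subunits, Irf1 and the interferon gamma receptor, 9 were higher with than without CLC (median 0.023), 4 were higher in Epcam-derived tumours without CLC than in Albumin-derived tumours (median -0.27) and 4 were higher with CLC than in Albumin-derived tumours (median -0.20). None passed limma's threshold (0 of 14 in each comparison). Ifng itself was on the array but was not well above background on both arrays of any group.

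Of 16 measured interferon gamma target genes, such as the guanylate-binding proteins and Cxcl10, 14 were higher with than without CLC (median 0.36), 13 in Epcam-derived tumours without CLC against Albumin-derived tumours (median 0.77) and 16 with CLC against Albumin-derived tumours (median 1.098), with 0 past the threshold. Their mean log2 signal was 0.36 and 1.99 in tumours with CLC, 0.38 and 1.17 in Epcam-derived tumours without CLC, against 0.27 and 0.06 in Albumin-derived tumours. Replicate 2 with CLC stood above the other 5 arrays, as it did for every member except B2m and Cd74. Gbp2, Gbp3, Gbp4, Gbp5 and Gbp7, 5 of the 16, were higher on all arrays of slide 2 than on all of slide 1, as were 15.7% of all features. Cxcl10, a chemokine that draws T cells, was 1.64 and 4.72 in tumours with CLC, 1.25 and 3.01 in Epcam-derived tumours without CLC, against 1.01 and 0.91 in Albumin-derived tumours.

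All 5 leukocyte markers (Ptprc, Coro1a, Laptm5, Cd52 and Cd53) were higher in each of the 3 comparisons, by medians of 0.50 with against without CLC, 0.41 for Epcam-derived tumours without CLC against Albumin-derived tumours and 0.88 with CLC against Albumin-derived tumours. Their mean log2 signal was 1.29 and 1.78 in tumours with CLC, 0.90 and 1.27 in Epcam-derived tumours without CLC, against 0.25 and 1.18 in Albumin-derived tumours, where replicate 1 was again the lowest array. Ptprc, the pan-leukocyte antigen CD45, was 1.43 and 1.90 in tumours with CLC, 0.89 and 1.43 in Epcam-derived tumours without CLC, against 0.53 and 0.97 in Albumin-derived tumours. All 5 were well above background on all 6 arrays.

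Of 12 macrophage and Kupffer cell markers, 10 were higher with than without CLC (median 0.53), 11 in Epcam-derived tumours without CLC against Albumin-derived tumours (median 0.88) and 10 with CLC against Albumin-derived tumours (median 1.53). Their mean was 2.50 and 2.07 in tumours with CLC, 1.13 and 1.95 in Epcam-derived tumours without CLC, against 0.89 and 0.88 in Albumin-derived tumours. The 4 measured B cell markers were higher in each comparison (medians 0.61, 0.76 and 1.40), with Cd79a, Blk and Fcer2a not above background on both arrays of any group. One of the 4, Ms4a1, was well above background on only 4 arrays, and Albumin-derived replicate 2 was not among them. Plasma cell markers were higher for 2 of 3, 0 of 3 and 0 of 3 in the 3 comparisons (medians 0.083, -0.78 and -0.52). Of 8 measured dendritic cell markers, 5 were higher with than without CLC (median 0.37), 2 in Epcam-derived tumours without CLC against Albumin-derived tumours (median -0.65) and 3 with CLC against Albumin-derived tumours (median -0.19). T and NK cell markers were higher for 6 of 9, 7 of 9 and 6 of 9 in the 3 comparisons (medians 0.34, 0.28 and 0.52). Among them, Klrb1c was well above background on 3 arrays, neither array with CLC included, and Cd8a and Gzmb on 5. Among the macrophage markers, Timd4 was well above background on 4. None of the cell type markers named or counted here passed limma's threshold, and their part in the class II differences was not tested.

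Parenchymal markers also had unlike means between groups, but 0 bile duct and 0 hepatocyte markers passed limma's threshold in any comparison. Of 7 bile duct markers, 6 were higher and 1 lower with than without CLC (median 1.62). That median is the difference of Epcam itself, which was not well above background in replicate 1 of the Epcam-derived tumours without CLC. On that array 6 of the 7 markers were well above background, and on the 2 Albumin-derived arrays 4 and 6 were. Krt19, a duct keratin and the marker with the largest difference but 1, was -1.59 and -1.37 in tumours with CLC and -4.21 and -3.87 in Epcam-derived tumours without CLC (limma, adjusted p = 0.999). In Albumin-derived tumours it was -4.94 and -3.52, the first of which was not well above background. Hepatocyte markers were lower in Epcam-derived tumours than in Albumin-derived tumours for 7 of 7, both with CLC (median -0.55) and without (median -0.48).

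**Figure D4:**
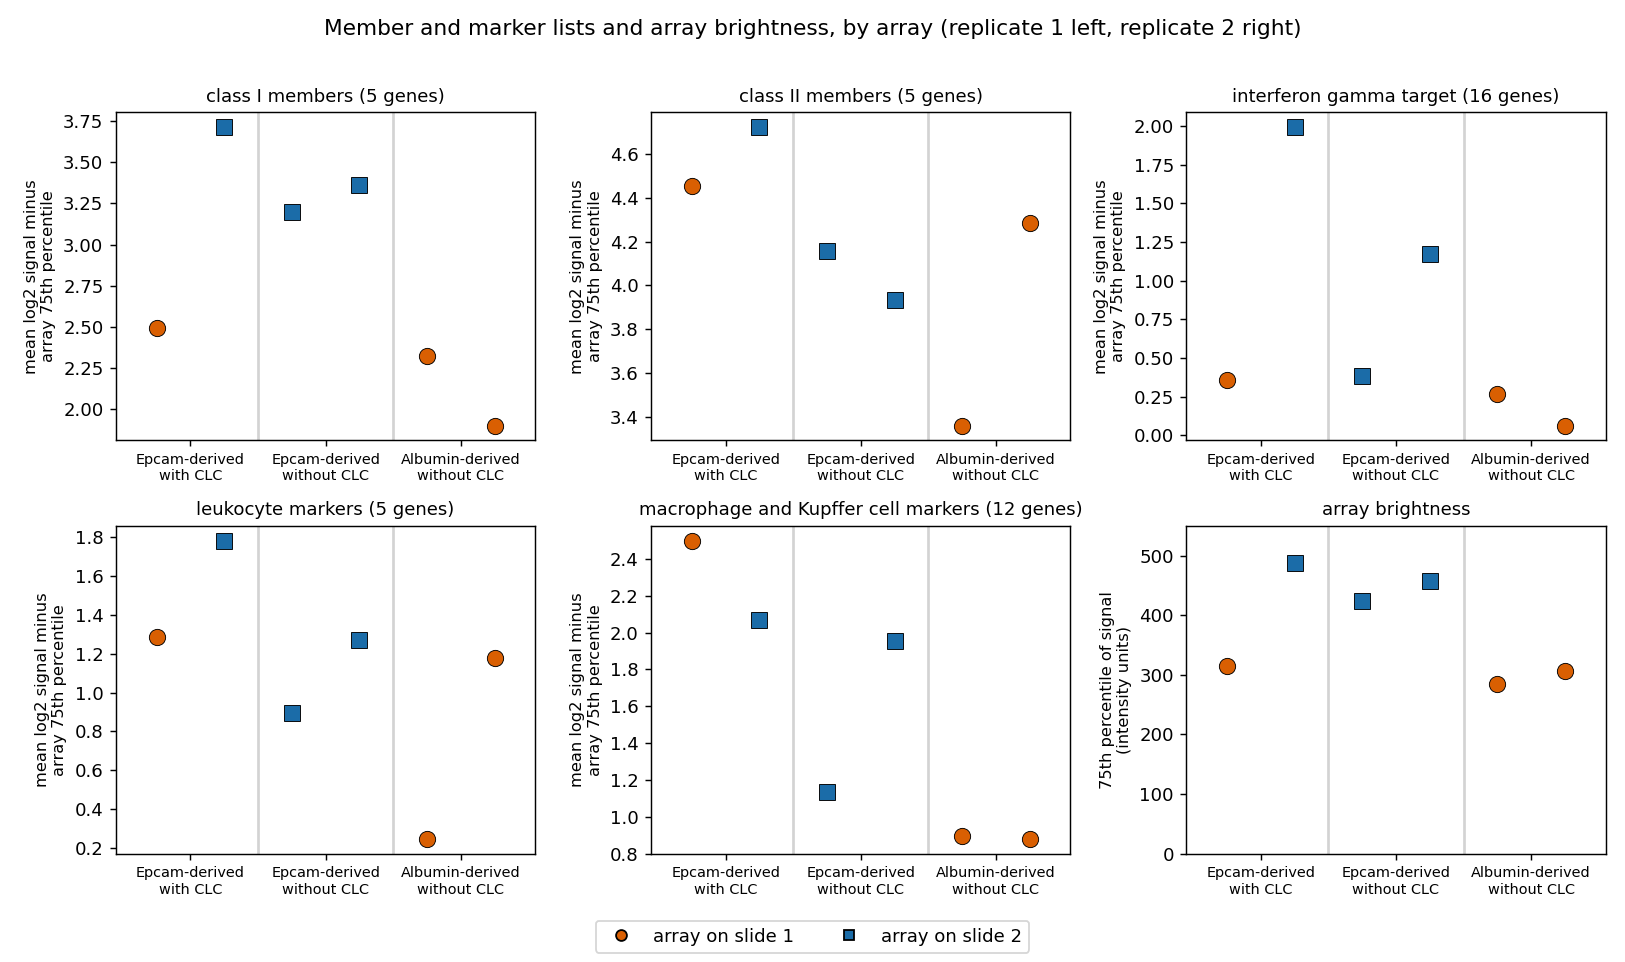
Mean log2 signal (minus the array's 75th percentile) of the class I and class II members, interferon gamma targets, leukocyte markers and macrophage and Kupffer cell markers on each array, and the 75th percentile of signal in intensity units; colour and shape give the slide. The class I mean and the array brightness are higher on the 3 slide 2 arrays, while the class II mean is lowest in Albumin-derived replicate 1, at 3.36, and highest in replicate 2 with CLC, at 4.72.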

How the data were processed

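Total RNA (0.1 µg) from frozen tumours was hybridised to 1-colour Agilent arrays. Per the file headers, the authors extracted spot intensity with Agilent Feature Extraction 11.5.1.1, and the deposited processed signal is a background-subtracted intensity, not yet scaled between arrays. The authors' deposited value table holds an intensity that is the same signal times 1 factor per array (1.64 to 2.42), on a linear and uncentred scale with column medians of 73.9, 78.0, 80.0, 74.1, 61.9 and 55.0 in the order of the groups in the report, with the reason for the factors not given in the sources used here.

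From these, control and outlier spots were left out, spots of a probe averaged, and log2 taken minus each array's 75th percentile. Probes were kept if the 2 arrays of any group both had them well above background, and the brightest probe stood for a gene. Accessions gave a symbol to 32994 of 56605 probes through RefSeq, and probes with no symbol were kept as features of their own. The 3 groups entered 1 limma 3.58.1 fit (lmFit and eBayes, R 4.3.3) with 3 residual degrees of freedom. P-values were 2-sided and adjusted by Benjamini-Hochberg over 27412 features, with a threshold of 0.05. Errors beside differences are limma's SE. The fit was tested on simulated data.

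The members and lists were chosen with earlier results of these data known. All members were named, and in each other list genes past the threshold or among the 4 with the largest differences could be named. Psmb10 was given as well, to stand beside Psmb8 and Psmb9. A member of the regulator list is not reported here. Promoter sequences are RefSeq's (GRCm38.p6). Windows for Nlrc5, Ciita and H2-Ab1 and that of Cd74 were not used here, and no coordinates of probes are given because the array design and the annotation differ in build. Alternatives changed the background correction, scaling, filter, probe rule, slide or replicate block, spread and arrays used.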

Additional observations from a re-analysis of the deposited data

How the results depend on the processing

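No member passed the threshold under any alternative; the smallest adjusted p was 0.0996, for Psmb8 in the fit of only the 4 arrays without CLC. Apart from fits that left out an array, the class II median with against without CLC ran from 0.49 to 0.71 over 14 alternatives and the class I median of Epcam-derived tumours without CLC against Albumin-derived tumours from 1.06 to 1.79 over 12. The fit of the report did not pair the samples by replicate number (correlations of deviations 0.23, -0.16 and 0.06). Each group gave a single deviation per feature, so these values cannot decide whether the samples were paired.

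Calls between the groups without CLC, 67 in the report (16 higher, 51 lower), numbered 114 and 135 with normexp on the processed and the median signal, 102 with quantile normalization, 106 with median scaling, 1 with no filter, 32 with a filter on all 6 arrays, 110 with the mean of a gene's probes, 129 with the authors' deposited value table (63 higher, 66 lower), 118 with slide as a random block, 11 with the replicate block and 34 with only the arrays compared. For tumours with CLC against Albumin-derived tumours, 17 in the report, they numbered 54, 66, 66, 35 and 1 under the first 5 of these, 0 with slide as a fixed block, 0 with the replicate block, 39 with only the arrays compared, 27 with trend and robust eBayes, and 253 within slide 1, where 1 tumour with CLC stood against 2. With the replicate block 0 features were called between tumours with and without CLC, as in the report.

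The class I median with CLC against Albumin-derived tumours was 0.50 with slide as a fixed block and within slide. Both also turned Tap1 (0.79), Psmb8 (0.13) and Psmb9 (0.47) with against without CLC; they leave 1 tumour with CLC in that contrast. Cd74 between the groups without CLC turned to 0.063 and 0.052 with the 2 normexp settings, 0.32 with quantile normalization and 0.31 with the deposited value table; B2m turned to 0.32 and 0.15, and Ciita to 0.28 with the table. B2m with CLC against Albumin-derived tumours turned to 0.39 and 0.21 with quantile normalization and the table. The table moved the median of all features against Albumin-derived tumours to 0.37 without and 0.31 with CLC, and normexp to -0.14 and -0.13, where it was 0.06 and -0.01. The cause was not tested.

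Leaving out 1 array at a time gave 0 to 268 calls with against without CLC, 0 to 16 between the groups without CLC and 0 to 334 with CLC against Albumin-derived tumours; 268 and 334 came without replicate 2 with CLC, a fit that assumes the lone tumour with CLC varies like the others. In the same order the class I median ran from -0.99 to 0.47, from 1.01 to 1.70 and from 0.50 to 1.95, and the class II median from 0.37 to 0.71, from -0.19 to 0.80 and from 0.22 to 1.28. Members that turned with against without CLC were Tap1 (-0.99 to 0.79), Psmb8 (-1.32 to 0.13), Psmb9 (-1.13 to 0.47) and Nlrc5 (-0.51 to 0.72). Between the groups without CLC they were B2m (-0.52 to 0.20), Ciita (-0.19 to 0.13), Cd74 (-0.56 to 0.56), H2-Aa (-0.45 to 0.80) and H2-Ab1 (-0.19 to 0.81), and with CLC against Albumin-derived tumours B2m (-0.47 to 0.26). With 2 arrays per group, probes near background, such as the second Nlrc5 probe, carry the least certain values.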

Other observations

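Among markers of cells that take up, present or respond to antigen, single genes went different ways. Clec9a, a receptor for dead cells on cross-presenting dendritic cells, had a log2 signal of -1.46 and -1.54 in tumours with CLC, -3.27 and -2.31 in Epcam-derived tumours without CLC, against -2.59 and -2.73 in Albumin-derived tumours. Both tumours with CLC were above the other 4, by 1.29 ± 0.37 against Epcam-derived tumours without CLC (SE, n = 2 per group; limma, adjusted p = 0.999). Batf3, a transcription factor of the same dendritic cells, was -0.06 and -0.63 in tumours with CLC, -1.68 and -0.75 in Epcam-derived tumours without CLC, against -1.60 and -1.48 in Albumin-derived tumours. Zbtb46, a transcription factor of conventional dendritic cells, differed the other way, at -4.14 and -3.46 in tumours with CLC, -2.65 and -3.89 in Epcam-derived tumours without CLC, against -2.68 and -2.57 in Albumin-derived tumours, with replicate 1 with CLC not well above background. Its difference with against without CLC was -0.53 ± 0.48 (adjusted p = 0.999). Cd209a, a lectin of monocyte-derived dendritic cells, was lower in both Epcam-derived groups, at -3.24 and -3.61 with CLC, -3.79 and -3.78 without CLC, against -2.40 and -2.73 in Albumin-derived tumours (adjusted p = 0.241 and 0.122 against the last).

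Gzmb, the cytotoxic protease granzyme B, was -2.71 and -2.38 in tumours with CLC, -2.95 and -2.82 in Epcam-derived tumours without CLC, against -4.57 and -4.65 in Albumin-derived tumours. All 4 Epcam-derived tumours were above both Albumin-derived ones, by 2.06 ± 0.26 with CLC and 1.73 ± 0.26 without (limma, adjusted p = 0.0751 and 0.074). Both Albumin-derived tumours and replicate 1 with CLC were on slide 1, and both Epcam-derived tumours without CLC on slide 2. The Gzmb probe was well above background on 1 of the 2 Albumin-derived arrays, replicate 1, so its differences are measured against a group partly at background. Of the 9 measured T and NK cell markers, 6 were higher and 3 lower with CLC than in Albumin-derived tumours. Without CLC, 7 were higher and 2 lower, and 0 passed the threshold in either comparison. Klrb1c and Cd8a, like Gzmb, were not well above background on every array.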
